A study of Mus musculus with 8 samples.

Results

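The comparison described here set wild-type liver tumors against wild-type normal liver in mice. Its members were chosen by label: of the 8 libraries of the series, the 5 from wild-type animals were used, 3 of tumor and 2 of normal liver, and no library from an animal with a hepatocyte deletion of Nfib entered. All animals were C57BL/6, and the labels give an age of 14 to 16 days for tumor and normal liver alike. Whether that was the age of the tumor-bearing animals could not be worked out. The wild-type group carries no named allele, transgene or treatment in the labels, and how the tumors arose is not given in the sources used here. The tumors are named tumor 1, tumor 2 and tumor 3 and the normal livers normal 2 and normal 3, with the numbers of the labels. The labels do not say that the libraries came from separate animals, so p-values below measure the spread between these samples, which may be technical in part. The question the comparison addresses is which liver transcripts differ between tumor and normal tissue when Nfib is intact.

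The liver is built mostly of hepatocytes, which make the plasma proteins, clear ammonia through the urea cycle, break down amino acids, and synthesize glucose, cholesterol and bile acids. These tasks are divided along the lobule between periportal and pericentral cells, and beta-catenin signalling maintains the pericentral program. Mouse and human hepatocellular tumors are known for re-expressing fetal liver genes such as Afp, for cell cycle genes, and for losing part of this metabolic program. Sinusoidal endothelium, Kupffer cells, stellate cells and lymphocytes make up most of the remaining liver cells.

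RNA was sequenced as stranded poly(A) libraries, and the deposited table holds whole counts for 21878 genes. Library totals ran between 15721988 and 19965842 counts in the tumors, and were 11912549 in normal 2 and 17453336 in normal 3. A gene was tested when at least 10 counts were found in 2 or more of the 5 libraries, which left 13664 genes. Levels are given as CPM, the count scaled to the library total after TMM normalization, and fold changes as log2 of tumor over normal with the standard error (SE) of the edgeR fit. The liver label held in every library: Alb, the albumin gene, took between 9.56% and 14.1% of all counts in the tumors, against 5.05% in normal 2 and 10.3% in normal 3. Per length, the 5 most abundant transcripts of the tumors by the authors' FPKM were the plasma protein genes Alb, Apoa1, Ahsg, Trf and Apoe. Alb was listed at 56600, 68360 and 46410 FPKM in tumors 1, 2 and 3, against 24490 and 50000 FPKM in normals 2 and 3.

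A pair of features of the libraries stood beside every result. Y-linked transcripts were found in normal 2 and, at a lower level, in tumor 2, and were at or near 0 in the other 3 libraries. Tumor 3 lay close to normal 3: only 663 of 13664 genes differed by more than 2-fold between them, fewer than the 1862 genes between the 2 normal livers. Results are therefore also given from a fit without tumor 2 and normal 2, which leaves 2 tumors and 1 normal liver, an alternative chosen after the data were seen.

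No gene passed an adjusted p of 0.05 in edgeR's quasi-likelihood test in either direction, 0% of the genes tested each way. The smallest adjusted p was 0.901, and 163 genes (1.19%) had an unadjusted p under 0.05, against 683 that chance alone would give. Of these, 134 genes (0.981%) were higher in tumors and 29 genes (0.212%) were lower. The common biological coefficient of variation, the relative spread between libraries of a group, was 0.436. In simulated counts with the spread of these libraries, the same test recovered 1.45% of genes changed by 2-fold, 15.6% of genes changed by 4-fold and 62.7% of genes changed by 8-fold. The count at unadjusted p depended on the libraries: it was 30 without tumor 1, 97 without tumor 2, 1524 without tumor 3 and 66 without normal 2. DESeq2 gave 512 genes at an unadjusted p under 0.05 and called 1 gene, Mup1, and limma-voom gave 76 and called none. Across all genes tested the median log2 fold change was 0.01, and 51.4% of genes had a positive one. Scaling by library totals in place of TMM moved that median to -0.15, so differences are read relative to it.

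The 3 tumors differed from the normal livers to very different extents. Tumor 1 had 610 genes (4.46%) more than 2-fold above both normal livers and 235 genes (1.72%) more than 2-fold below both. Tumor 2 had 1283 genes (9.39%) above and 1701 genes (12.4%) below. Tumor 3 had 63 genes (0.461%) above and 36 genes (0.263%) below. Tumors 1 and 2 thus stood apart from normal liver in many genes and tumor 3 in few. Of the genes above both normals, 419 were shared by tumors 1 and 2, which is 68.7% of the list of tumor 1 and 32.7% of that of tumor 2. Of the genes below both normals, 161 were shared, or 68.5% of the list of tumor 1 and 9.47% of that of tumor 2. These counts use the same 2 normal livers, and 1 library against 2 has no replicate of its own, so they carry no test. Past 2-fold in all 3 tumors were 13 genes above and 2 genes below; the 2 below were Mup1 and Tex12.

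**Figure D1:**
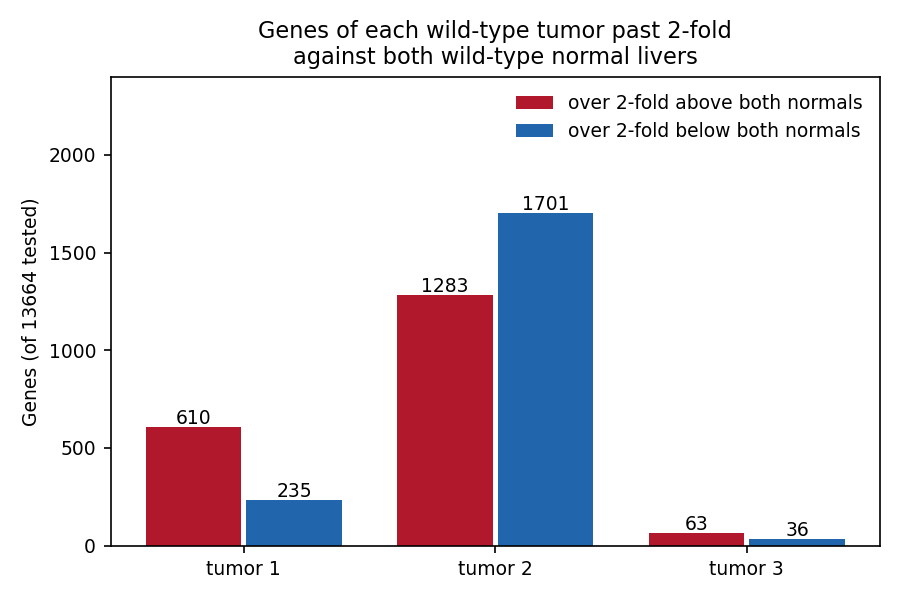
Number of genes, of 13664 tested, whose CPM in a tumor lay more than 2-fold above (red) or below (blue) both wild-type normal livers; x axis, tumor; y axis, number of genes. Tumor 2 has 1283 and 1701 genes, tumor 1 has 610 and 235, and tumor 3 has 63 and 36.

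The genes farthest from normal liver differed in part between tumors: Afp was named on the higher side in tumors 1 and 2, and on the lower side Mup18 in tumors 1 and 2 and Mup1 in tumors 1 and 3. In tumor 1 they were Afp, Gpc3, Igfbp1, Ly6d and Cacna1b among genes with a mean of at least 10 CPM. Gpc3, a heparan sulfate proteoglycan of fetal liver and of human hepatocellular carcinoma, had 448, 11.2 and 7.68 CPM in tumors 1, 2 and 3, against 10.6 and 2.87 CPM in normals 2 and 3. It was high in tumor 1 alone, and tumors 2 and 3 overlapped normal 2. In tumor 2 the farthest were Vmn2r3, Igf2, Cldn15, Afp and Tenm4. Vmn2r3, annotated as a vomeronasal receptor gene, had 1.71, 232 and 0 CPM in tumors 1, 2 and 3, against 0 and 0.175 CPM in normals 2 and 3. Cldn15, which encodes a tight junction claudin, had 1.34, 223 and 0.799 CPM in tumors 1, 2 and 3, against 0.716 and 0.877 CPM in normals 2 and 3. Both genes stood out in tumor 2 alone. In tumor 3 they were Bglap3, B4galnt2, Dmbt1, Myo7b and Mmd2. B4galnt2, a glycosyltransferase gene, had 1.4, 89.5 and 2.89 CPM in tumors 1, 2 and 3, against 1.0 and 0.175 CPM in normals 2 and 3. It met the condition of a mean of at least 10 CPM only through tumor 2. Its higher level in tumor 2 is therefore not a result about tumor 3.

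On the other side, tumor 2 lay farthest below normal liver in Hpd, Ptgds, Mup18, Slc25a21 and Cyp2c54. Hpd, a tyrosine breakdown enzyme, had 1437, 12.8 and 2241 CPM in tumors 1, 2 and 3, against 1553 and 2314 CPM in normals 2 and 3. Only tumor 2 was far from the rest. The lowest genes of tumor 1 were Mup18, Cyp2j9, Scnn1a, Mup16 and Mup1, and those of tumor 3 were Mup1, Mup14, Rgs4, Serpina7 and Abcb10. Members of the Mup family are near-identical copies, so that the split of reads between them is uncertain.

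The number of genes in which all 3 tumors lay on 1 side of both normal livers depended on the scaling. By library totals, 540 genes lay above both normals and 1494 below both. By TMM, the scaling used for the shares given here, 1055 genes (7.72%) lay above both normal livers and 1069 genes (7.82%) below both. Among those with a mean of at least 1 CPM, the smallest unadjusted p-values on the higher side belonged to Tuba8, Rab15, Stambpl1, Scd3, Tmem252, Tnnt1, Fam46a, Bcas1, Myo7b, Fam73a, Aig1 and Card6, none of which passed the adjusted threshold. Tuba8, an alpha-tubulin gene, had 7.01, 7.11 and 4.36 CPM in tumors 1, 2 and 3, against 1.93 and 2.34 CPM in normals 2 and 3. Its log2 fold change was 1.52 ± 0.39 (SE) at an unadjusted p of 0.0100 in edgeR. Stambpl1, a deubiquitinase gene, had 5.06, 6.39 and 4.18 CPM in the tumors, against 2.15 and 1.70 CPM in the normals, a log2 fold change of 1.44 ± 0.39 (SE). No overlap between groups was a condition of this list, so the separation of all 3 tumors from both normals is not a result about these genes. Fam46a, a non-canonical poly(A) polymerase gene, had 50.5, 57.6 and 20.9 CPM in the tumors, against 11.3 and 16.4 CPM in the normals, a log2 fold change of 1.63 ± 0.49 (SE). Card6, a caspase recruitment domain gene, had 25.6, 26.1 and 17.8 CPM in the tumors, against 13.6 and 13.9 CPM in the normals. The remaining genes included some with very few reads: Rab15 had 1 count and Bcas1 had 0 counts in each normal library, so no fold change is given for them.

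On the lower side the list was Mup1, Abcb10, Sox12, Gm13251, Odf3b, Elovl3, Adam11, Mcm10, Mest, Adamts7, BC029214 and Lag3. Mup1, a major urinary protein gene that adult male liver expresses strongly, had 2.32, 0.278 and 2.21 CPM in tumors 1, 2 and 3, against 426 and 7.66 CPM in normals 2 and 3. Its log2 fold change was -7.08 ± 1.80 (SE), its unadjusted p of 0.00964 was the smallest of all genes, and the value in normal 2 was far above that in normal 3. Without normal 2 the log2 fold change of Mup1 was -2.27, and without tumor 2 and normal 2 it was -1.78. Abcb10, which encodes a mitochondrial transporter, had 16.5, 12.8 and 15.7 CPM in the tumors, against 26.8 and 21.8 CPM in the normals, a log2 fold change of -0.69 ± 0.21 (SE). Sox12, a transcription factor gene, had 3.54, 4.61 and 3.93 CPM in the tumors, against 8.09 and 7.25 CPM in the normals, a log2 fold change of -0.93 ± 0.29 (SE). Abcb10 and Sox12 were close within each group, and no overlap between groups was again a condition of the list. Mcm10, a replication initiation factor, had 21.1, 14.0 and 33.5 CPM in the tumors, against 115 and 36.9 CPM in the normals, where the value of normal 2 stood alone.

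Fetal liver genes were far higher in tumors 1 and 2 and not in tumor 3. Of 15 tested genes of fetal liver and imprinted growth, 14 had a positive log2 fold change with a median of 3.14, against 51.4% of all genes and their median of 0.01. None had an unadjusted p under 0.05 on the higher side, and 1, Mest, did on the lower side, against 0.212% of all genes. Measured against the mean of the normal livers, the median of the list was 2.47 log2 units in tumor 1, 3.29 in tumor 2 and -0.20 in tumor 3. In tumor 1, 10 members were more than 2-fold above both normals, against 4.46% of all genes. In tumor 2 it was 12 members, against 9.39%, and in tumor 3, 0 members, against 0.461%. In bulk tissue, more cells of a type and more RNA per cell cannot be told apart, here and in every result below.

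Afp, which encodes alpha-fetoprotein, the fetal counterpart of albumin, had 582, 2341 and 4.49 CPM in tumors 1, 2 and 3, against 12.7 and 1.11 CPM in normals 2 and 3. Tumors 1 and 2 were far above both normal livers and tumor 3 lay between them. The log2 fold change was 7.14 ± 2.85 (SE) at an unadjusted p of 0.0505 in edgeR. Igf2, the imprinted fetal growth factor gene, had 14.0, 5749 and 3.81 CPM in the tumors, against 9.95 and 4.15 CPM in the normals. Its high level was that of tumor 2 alone. Golm1, a Golgi membrane protein known as a serum marker of human liver cancer, had 64.4, 114 and 12.1 CPM in the tumors, against 17.2 and 7.72 CPM in the normals, a log2 fold change of 2.35 ± 0.99 (SE). Mest, another imprinted gene, ran the other way, with 4.57, 4.17 and 4.05 CPM in the tumors, against 8.88 and 6.55 CPM in the normals and a log2 fold change of -0.85 ± 0.29 (SE). Without tumor 2 and normal 2, 12 of the 15 genes were positive with a median of 2.29, and without tumor 2 alone the median was 1.23.

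**Figure D2:**
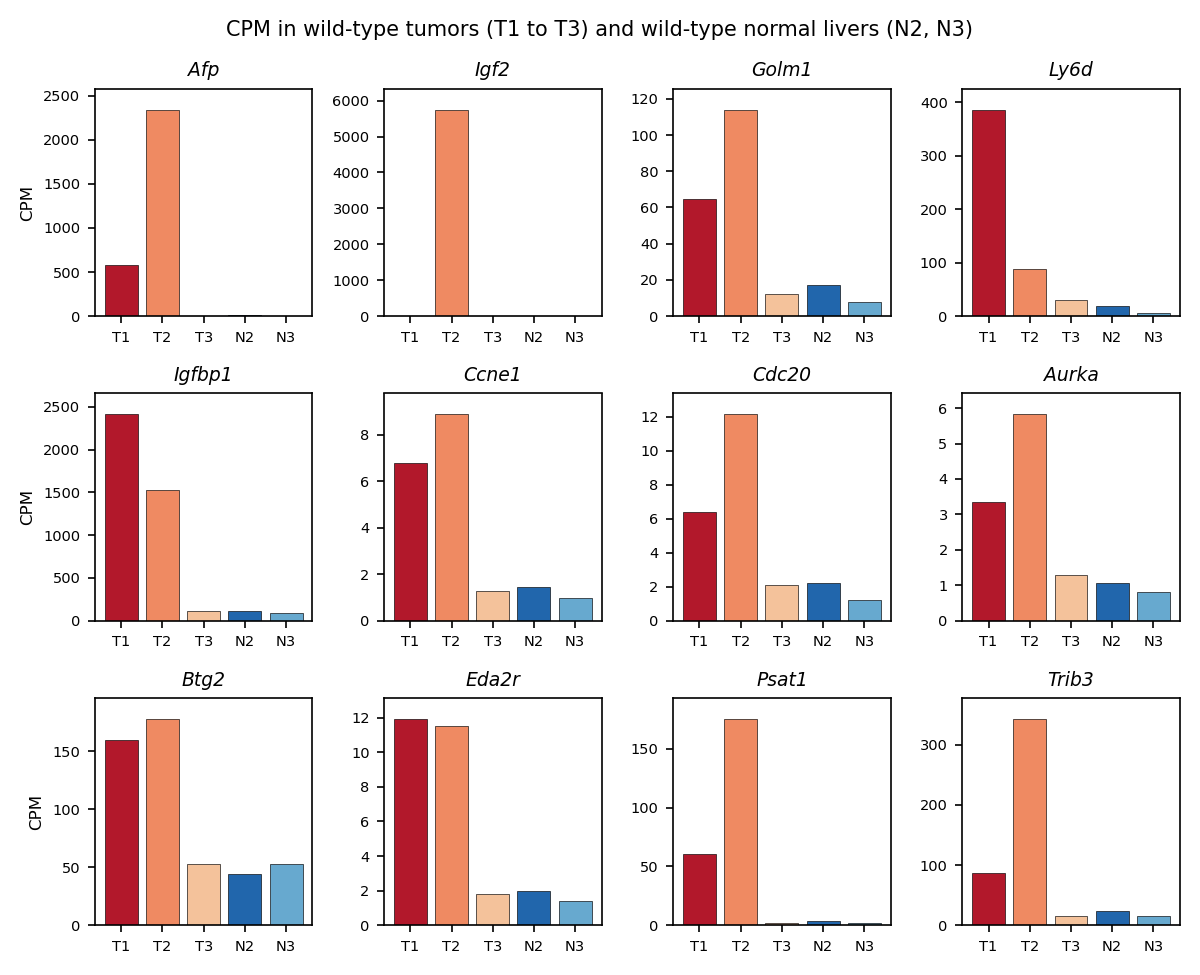
CPM (y axis, linear, from 0, own scale per gene) of 12 genes in wild-type tumors 1 to 3 (T1 to T3, red tones) and wild-type normal livers 2 and 3 (N2, N3, blue tones); each bar is 1 library. Tumors 1 and 2 are high in most panels, Igf2 reaches 5749 CPM in tumor 2 alone, and tumor 3 is near the normal livers in all panels but Ly6d, where its 30.6 CPM exceeds both.

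Markers of progenitor and biliary-type cells gave a mixed picture. Of 19 tested members, 11 had a positive log2 fold change with a median of 0.37. On the higher side 2 had an unadjusted p under 0.05, against 0.981% of all genes, and 3 lay above both normals in all 3 tumors, against 7.72% of all genes. Ly6d, a small surface protein anchored in the membrane by a lipid, had 386, 89.1 and 30.6 CPM in tumors 1, 2 and 3, against 19.7 and 5.5 CPM in normals 2 and 3, a log2 fold change of 3.75 ± 1.33 (SE). Prom1, which encodes the progenitor marker CD133, had 87.8, 52.9 and 15.5 CPM in the tumors, against 13.2 and 10.3 CPM in the normals, a log2 fold change of 2.15 ± 0.75 (SE). Both genes were above normal liver in every tumor, with tumor 3 only slightly so for Prom1. The duct keratin gene Krt19 had 9.45, 1.78 and 18.8 CPM in the tumors, against 19.2 and 2.28 CPM in the normals. Its high libraries were tumor 3 and normal 2, and the groups overlapped. Over the list as a whole normal 2 was also above normal 3, with medians of 0.80 and -0.80 log2 units about their mean. Without tumor 2 and normal 2, 18 of 19 members were positive with a median of 1.30, and without normal 3 the median was -0.34.

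Genes of cell division were higher in tumors 1 and 2. Of 25 tested genes of G2 and mitosis, 24 had a positive log2 fold change, with a median of 1.14, and none had an unadjusted p under 0.05. That median was 1.72 without normal 2, 0.83 without normal 3 and 0.30 on the log2(FPKM + 1) scale. The median of the list against the normal mean was 1.61 log2 units in tumor 1, 1.70 in tumor 2 and 0.02 in tumor 3. All 3 tumors lay above both normals for 3 members, against 7.72% of all genes. Cdc20, an activator of the anaphase-promoting complex, had 6.40, 12.2 and 2.09 CPM in tumors 1, 2 and 3, against 2.22 and 1.23 CPM in normals 2 and 3, a log2 fold change of 2.0 ± 0.83 (SE). Aurka, the gene of the spindle kinase Aurora A, had 3.35, 5.83 and 1.29 CPM in the tumors, against 1.07 and 0.819 CPM in the normals, a log2 fold change of 1.88 ± 0.76 (SE). Plk1, a mitotic kinase gene, had 3.6, 4.89 and 1.23 CPM in the tumors, against 1.15 and 0.819 CPM in the normals. Tumors 1 and 2 had several times the normal level of these genes and tumor 3 was near normal 2. The levels of Mki67, a marker of cycling cells, were 24.8, 14.3 and 10.5 CPM in the tumors, against 13.2 and 8.48 CPM in the normals, so that tumor 3 overlapped the normals. The fit without tumor 2 and normal 2 gave 25 of 25 positive members and a median of 1.26.

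Genes of DNA replication and the G1/S step differed less. Of 26 tested members, 23 had a positive log2 fold change, with a median of 0.35, and none had an unadjusted p under 0.05. Ccne1, which encodes cyclin E1, had 6.76, 8.88 and 1.29 CPM in tumors 1, 2 and 3, against 1.43 and 0.994 CPM in normals 2 and 3, a log2 fold change of 2.22 ± 0.89 (SE). Mcm2, a subunit of the replicative helicase, had 10.2, 15.9 and 5.65 CPM in the tumors, against 4.94 and 4.50 CPM in the normals, a log2 fold change of 1.16 ± 0.48 (SE). Pcna, the sliding clamp of DNA polymerase, had 37.5, 45.3 and 40.8 CPM in the tumors, against 38.9 and 34.6 CPM in the normals. Its groups overlapped.

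Promoters of mitotic genes are known for CCAAT boxes, bound by NF-Y, and for the CHR element, TTTGAA. Promoter sequence for 21 genes of the G2 and mitosis list was found in the RefSeq table of GRCm38.p6, as 23 promoters of 250 bases before the start. CCAAT or its reverse complement ATTGG was found in 21 of these 23 (91.3%), against 33.8% of the 32851 promoters of the table. TTTGAA or its reverse complement was found in 9 of 23 (39.1%), against 16.0% of all. Those of Cdc20 (chr4:118437344-118437593, minus strand) and Cdk1 (chr10:69352913-69353162, minus strand) are shown because both hold the 2 elements close to the start; capitals mark the 2 elements in either orientation, and both run 5′ to 3′ toward the gene. A match describes the letters and is not a measured site.

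Cdc20: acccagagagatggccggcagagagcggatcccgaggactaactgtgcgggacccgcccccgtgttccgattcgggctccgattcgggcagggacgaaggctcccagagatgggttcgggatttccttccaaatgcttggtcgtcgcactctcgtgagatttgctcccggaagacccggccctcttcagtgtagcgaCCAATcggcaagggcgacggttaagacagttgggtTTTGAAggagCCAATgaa

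Cdk1: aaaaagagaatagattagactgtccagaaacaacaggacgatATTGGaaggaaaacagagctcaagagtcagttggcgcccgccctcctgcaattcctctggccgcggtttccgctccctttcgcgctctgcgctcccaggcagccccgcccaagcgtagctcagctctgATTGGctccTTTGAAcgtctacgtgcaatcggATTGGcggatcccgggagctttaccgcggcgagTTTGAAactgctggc

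Cholesterol synthesis was, of 45 lists, the one with the most members that separated the groups. All 24 tested genes of cholesterol synthesis and its regulation had a positive log2 fold change, with a median of 0.93, against 0.01 for all genes. The median was 0.46 without normal 2 and 1.43 without normal 3. In 14 of the 24 all 3 tumors lay above both normal livers, against 7.72% of all genes, and 6 had an unadjusted p under 0.05, against 0.981% of all genes. The median of the list against the normal mean was 1.33 log2 units in tumor 1, 1.03 in tumor 2, and 0.44 in tumor 3; the 2 normals themselves stood at -0.44 in normal 2 and 0.44 in normal 3, so that tumor 3 was level with normal 3. Without tumor 2 and normal 2, 22 of 24 members were positive and the median was 0.47. The part of the low level of normal 2, the library with Y-linked transcripts, in this result was not tested beyond that fit.

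Sqle, squalene epoxidase, had 202, 205 and 76.0 CPM in tumors 1, 2 and 3, against 33.2 and 73.0 CPM in normals 2 and 3. Its log2 fold change was 1.60 ± 0.60 (SE) at an unadjusted p of 0.0408 in edgeR. Fdps, farnesyl diphosphate synthase, had 299, 280 and 144 CPM in the tumors, against 84.7 and 123 CPM in the normals, a log2 fold change of 1.22 ± 0.43 (SE). Dhcr7, which catalyses the final step to cholesterol, had 193, 125 and 77.2 CPM in the tumors, against 52.2 and 59.2 CPM in the normals, a log2 fold change of 1.24 ± 0.43 (SE). These genes were highest in tumors 1 and 2, and tumor 3 was just above both normal livers. Mvd, mevalonate diphosphate decarboxylase, had a log2 fold change of 1.20 ± 0.45 (SE).

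**Figure D3:**
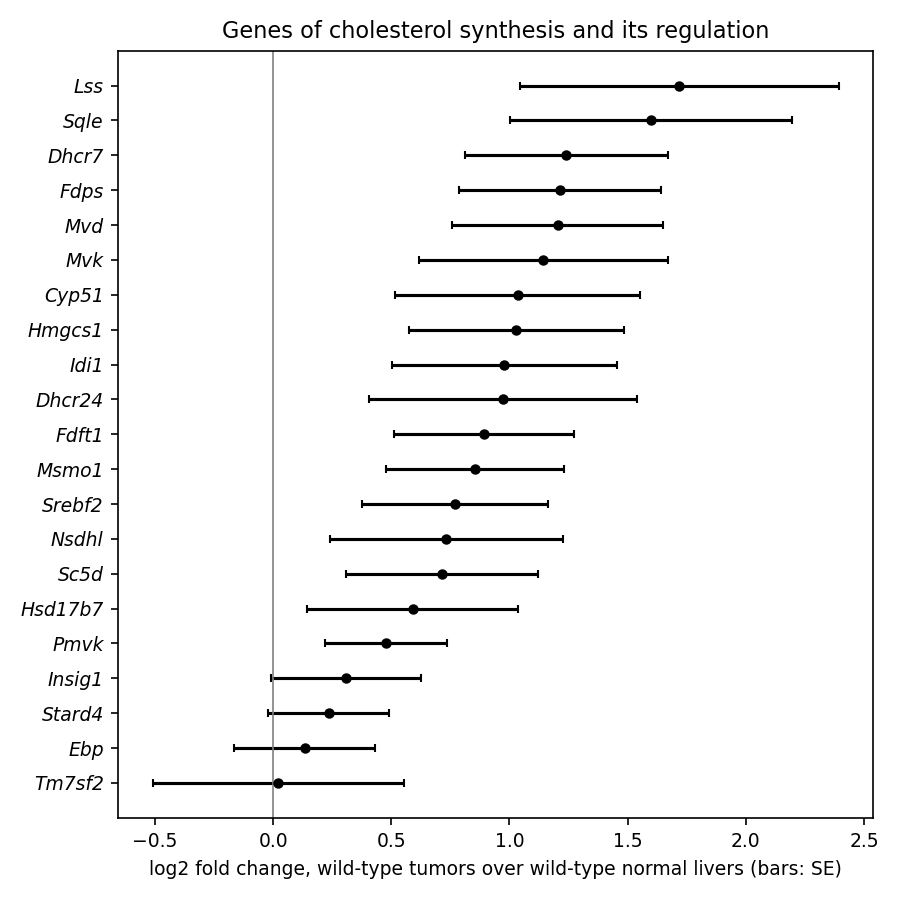
Log2 fold change of wild-type tumors over wild-type normal livers (x axis; points, edgeR estimates; bars, SE) of 21 genes of the cholesterol list (y axis). All 21 points lie above 0, and Sqle stands at 1.60 ± 0.60.

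Sterol genes are switched on by SREBP2 together with NF-Y. RefSeq promoters of GRCm38.p6 were found for 16 genes of the list, 19 promoters in all. CCAAT or ATTGG was found in 16 of 19 (84.2%), against 33.8% of all promoters, and the sterol element TCACNCCAC, on either strand, in 1 of 19 (5.26%), against 1.05% of all. That promoter belongs to Hmgcs1 (chr13:119690101-119690350, plus strand), the synthase that makes HMG-CoA, which had 656, 491 and 378 CPM in tumors 1, 2 and 3, against 167 and 331 CPM in normals 2 and 3. It is shown with that of Lss (chr10:76531355-76531604, plus strand), lanosterol synthase, which had 227, 179 and 50.0 CPM in the tumors, against 52.2 and 40.2 CPM in the normals. Capitals mark the CCAAT box in either orientation and, in Hmgcs1, the sterol element.

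Hmgcs1: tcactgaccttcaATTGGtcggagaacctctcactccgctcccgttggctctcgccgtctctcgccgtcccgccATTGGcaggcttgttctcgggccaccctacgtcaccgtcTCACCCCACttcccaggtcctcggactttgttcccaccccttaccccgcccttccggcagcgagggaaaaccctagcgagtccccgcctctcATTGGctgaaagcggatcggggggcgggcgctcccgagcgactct

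Lss: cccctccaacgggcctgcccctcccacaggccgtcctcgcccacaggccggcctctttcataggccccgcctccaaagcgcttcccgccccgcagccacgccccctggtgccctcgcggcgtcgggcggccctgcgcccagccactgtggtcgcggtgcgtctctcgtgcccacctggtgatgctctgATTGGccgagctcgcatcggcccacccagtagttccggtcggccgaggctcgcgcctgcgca

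Target genes of p53 were higher in tumors 1 and 2. Of 20 tested members, 17 had a positive log2 fold change, with a median of 0.69. An unadjusted p under 0.05 was found for 3, against 0.981% of all genes, and 5 lay above both normals in all 3 tumors, against 7.72% of all genes. Btg2, an antiproliferative gene, had 159, 178 and 53 CPM in tumors 1, 2 and 3, against 44.1 and 52.9 CPM in normals 2 and 3, a log2 fold change of 1.42 ± 0.56 (SE). Eda2r, a receptor of the TNF receptor family, had 11.9, 11.5 and 1.78 CPM in the tumors, against 2.0 and 1.4 CPM in the normals, a log2 fold change of 2.30 ± 0.90 (SE). Cdkn1a, which encodes the cell cycle inhibitor p21, had 77.6, 69.8 and 28.3 CPM in the tumors, against 16.8 and 29.1 CPM in the normals, a log2 fold change of 1.35 ± 0.52 (SE). Tumor 3 was within the normal range for Eda2r and Cdkn1a. Mdm2, the ubiquitin ligase that limits p53, had 46.6, 54.0 and 30.7 CPM in the tumors, against 28.8 and 29.6 CPM in the normals. Without tumor 2 and normal 2 the median of the list was 0.36.

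Stress response genes followed the same order of tumors. Of 19 tested targets of ATF4 and CHOP, the integrated stress response, 16 had a positive log2 fold change with a median of 1.21. An unadjusted p under 0.05 was found for 2, both higher in tumors, against 0.981% of all genes. The median against the normal mean was 0.78 log2 units in tumor 1, 1.43 in tumor 2 and -0.12 in tumor 3. Psat1, an enzyme of serine synthesis, had 61.0, 176 and 2.21 CPM in tumors 1, 2 and 3, against 3.36 and 1.87 CPM in normals 2 and 3. Its log2 fold change was 4.93 ± 1.81 (SE) at an unadjusted p of 0.0387 in edgeR. Phgdh, the first enzyme of that pathway, had 33.8, 42.9 and 1.66 CPM in the tumors, against 2.43 and 1.75 CPM in the normals, a log2 fold change of 3.64 ± 1.36 (SE). Both serine synthesis genes were high in tumors 1 and 2, and tumor 3 overlapped the normals. Trib3, a pseudokinase gene, had 86.6, 343 and 14.9 CPM in the tumors, against 23.5 and 14.8 CPM in the normals. Ddit3, which encodes CHOP itself, had 17.7, 324 and 23.1 CPM in the tumors, against 11.7 and 20 CPM in the normals, high in tumor 2 alone. Without tumor 2 the median of the list was 0.41, and without tumor 2 and normal 2 it was 0.48.

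Of 16 tested genes of endoplasmic reticulum chaperones and the unfolded protein response, 15 had a positive log2 fold change. The median of the list was 0.49, and none of the 16 had an unadjusted p under 0.05. Hspa5, the chaperone BiP, had 1355, 4254 and 682 CPM in tumors 1, 2 and 3, against 661 and 702 CPM in normals 2 and 3. The 17 tested NRF2 targets had 12 positive members with a median of 0.46, which was 0.17 without tumor 2. An unadjusted p under 0.05 was found for 1 member, against 0.981% of all genes. That member was Nqo1, a quinone reductase, with 33.8, 54.4 and 14.7 CPM in the tumors, against 10.7 and 11.3 CPM in the normals and a log2 fold change of 1.64 ± 0.57 (SE). Of 17 tested feedback regulators and targets of MAPK signalling, 14 were positive with a median of 0.74, which was 0.38 without tumor 1 and 0.22 on the log2(FPKM + 1) scale, and none had an unadjusted p under 0.05. Dusp6, an ERK phosphatase, had 151, 83.1 and 54.1 CPM in the tumors, against 46.0 and 59.8 CPM in the normals, and Dusp5, its nuclear relative, had 13, 16.2 and 3.13 CPM in the tumors, against 3.79 and 1.81 CPM in the normals. For Hspa5, Dusp5 and Dusp6, tumor 3 fell within or beside the normal values.

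Among the named genes of the acute phase and the growth hormone and IGF lists, Igfbp1, an insulin-regulated IGF binding protein of hepatocytes, had 2414, 1529 and 114 CPM in tumors 1, 2 and 3, against 118 and 88.1 CPM in normals 2 and 3, a log2 fold change of 3.71 ± 1.32 (SE). Igfbp3, the main IGF carrier of serum, had 146, 164 and 29.8 CPM in the tumors, against 24.8 and 23.4 CPM in the normals, a log2 fold change of 2.23 ± 0.77 (SE). Lcn2, an iron-scavenging acute phase protein, had 706, 663 and 45.7 CPM in the tumors, against 60.0 and 25.4 CPM in the normals, a log2 fold change of 3.47 ± 1.28 (SE). In these genes tumors 1 and 2 were alike and tumor 3 was near the normal livers. Il1rn, the interleukin 1 receptor antagonist, had 60.2, 104 and 11.2 CPM in the tumors, against 6.66 and 9.47 CPM in the normals. Mt2, a metal-binding metallothionein, had 376, 410 and 120 CPM in the tumors, against 33.4 and 94.0 CPM in the normals, a log2 fold change of 2.25 ± 0.75 (SE). The 21 acute phase genes as a list were split, with 11 positive and 10 negative. All 3 tumors lay above both normals for 4 members and below both for 4, against 7.72% and 7.82% of all genes. Of the classical ones, Hp, haptoglobin, had 4648, 3773 and 3412 CPM in the tumors, against 3334 and 3447 CPM in the normals. Saa1, serum amyloid A1, had 38.8, 4.89 and 36.9 CPM in the tumors, against 70.9 and 46.6 CPM in the normals. The growth hormone and IGF list of 14 tested genes had 5 positive and 9 negative members. Ghr, the growth hormone receptor, had 225, 162 and 375 CPM in the tumors, against 457 and 390 CPM in the normals. Igf1 had 499, 55.9 and 882.5 CPM in the tumors, against 822 and 803 CPM in the normals. Of 23 plasma protein genes, 16 were positive with a median of 0.38, which was 0.02 without tumor 2 and normal 2.

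Hepatocyte metabolism went the other way, and mostly in tumor 2. All 29 tested enzymes of amino acid breakdown had a negative log2 fold change, with a median of -0.52, which was -0.96 without tumor 3, and none had an unadjusted p under 0.05. The median of the list against the normal mean was -0.43 log2 units in tumor 1, -1.77 in tumor 2 and 0.08 in tumor 3. In tumor 2, 17 members were more than 2-fold below both normals, against 12.4% of all genes. In tumor 1 it was 1 member, against 1.72%, and in tumor 3, 0 members, against 0.263%. Hal, which degrades histidine, had 146, 44.2 and 282 CPM in tumors 1, 2 and 3, against 379 and 312 CPM in normals 2 and 3, a log2 fold change of -1.13 ± 0.73 (SE). Tumor 2 was the lowest library for this gene. Without tumor 2 the median of the list was -0.17, and without tumor 2 and normal 2 it was -0.27 with 4 of 29 members positive.

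The urea cycle, the pathway in the title of the series, showed the same order. Of its 9 tested enzymes and carriers, 8 had a negative log2 fold change, with a median of -0.45, which was -0.93 without tumor 3, and none had an unadjusted p under 0.05. Otc, ornithine transcarbamylase, had 273, 191 and 531 CPM in tumors 1, 2 and 3, against 618 and 555 CPM in normals 2 and 3, a log2 fold change of -0.82 ± 0.50 (SE). All 3 tumors were below both normals, tumor 3 only slightly. Arg1, arginase, had 956, 177 and 1506 CPM in the tumors, against 1698 and 1449 CPM in the normals. Cps1, which makes carbamoyl phosphate from ammonia, had 1762, 1830 and 2546 CPM in the tumors, against 3032 and 2500 CPM in the normals, a log2 fold change of -0.43 ± 0.39 (SE). In both, tumor 3 lay between the normal livers. Without tumor 2 the median of the list was -0.23.

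The lists of gluconeogenesis and glycogen, fatty acid oxidation and bile acids were also lowest in tumor 2, and the median of glycolysis genes was highest there. Of 16 gluconeogenesis and glycogen genes, 2 were positive and the median was -0.45, which was -0.12 without tumor 2. Pck1, the gatekeeper of gluconeogenesis, had 4224, 126 and 6754 CPM in tumors 1, 2 and 3, against 4925 and 6820 CPM in normals 2 and 3. G6pc, glucose-6-phosphatase, had 135, 26.5 and 362 CPM in the tumors, against 595 and 391 CPM in the normals, a log2 fold change of -1.50 ± 0.99 (SE). Tumor 2 was more than 10-fold below normal liver in both genes. Of 20 genes of glycolysis and the pentose phosphate pathway, 17 were positive with a median of 0.27, which was 0.14 without tumor 1 and 0.11 without tumor 2, and none had an unadjusted p under 0.05. Of 21 genes of fatty acid oxidation, 5 were positive with a median of -0.36, which turned to 0.58 without normal 3. Of 19 genes of bile acid synthesis and transport, 4 were positive with a median of -0.44, which was -0.10 without tumor 2, -0.09 without normal 3 and -1.07 without tumor 3. An exception in that list was Abcc4, a basolateral export pump, with 42.6, 176 and 9.83 CPM in the tumors, against 9.73 and 7.54 CPM in the normals and a log2 fold change of 3.14 ± 1.25 (SE). Of 25 cytochrome P450 genes, 11 were positive with a median of -0.21, which was 0.03 without tumor 2.

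The zones of the lobule were read from 2 lists. Of 11 periportal genes, 4 were positive and the median was -0.74, which was -0.32 without tumor 2 and -1.41 without tumor 3, with medians of -0.55 in tumor 1, -2.32 in tumor 2 and -0.10 in tumor 3 against the normal mean. Of 19 pericentral and beta-catenin target genes, 10 were positive and the median was 0.15, with 0.81 in tumor 1, -2.92 in tumor 2 and 0.48 in tumor 3, against -0.55 in normal 2 and 0.55 in normal 3. Tumor 2 thus had low levels of both lists, while tumor 1 was below both normals in the periportal median and slightly above normal 3 in the pericentral one. Glul, glutamine synthetase, had 622, 49.4 and 1126 CPM in tumors 1, 2 and 3, against 241 and 1272 CPM in normals 2 and 3. Lgr5, a Wnt receptor component and target, had 22.7, 0.389 and 6.21 CPM in the tumors, against 3.29 and 5.91 CPM in the normals. Axin2, a feedback inhibitor of the pathway, had 13.5, 0.666 and 9.52 CPM in the tumors, against 5.87 and 9.88 CPM in the normals. Tumor 2 was the lowest library for all 3 genes, and tumor 1 was the highest for Lgr5 and Axin2. The median of the pericentral list changed sign under several alternatives. In tumor 2, 13 of its members were more than 2-fold below both normals, against 12.4% of all genes.

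**Figure D4:**
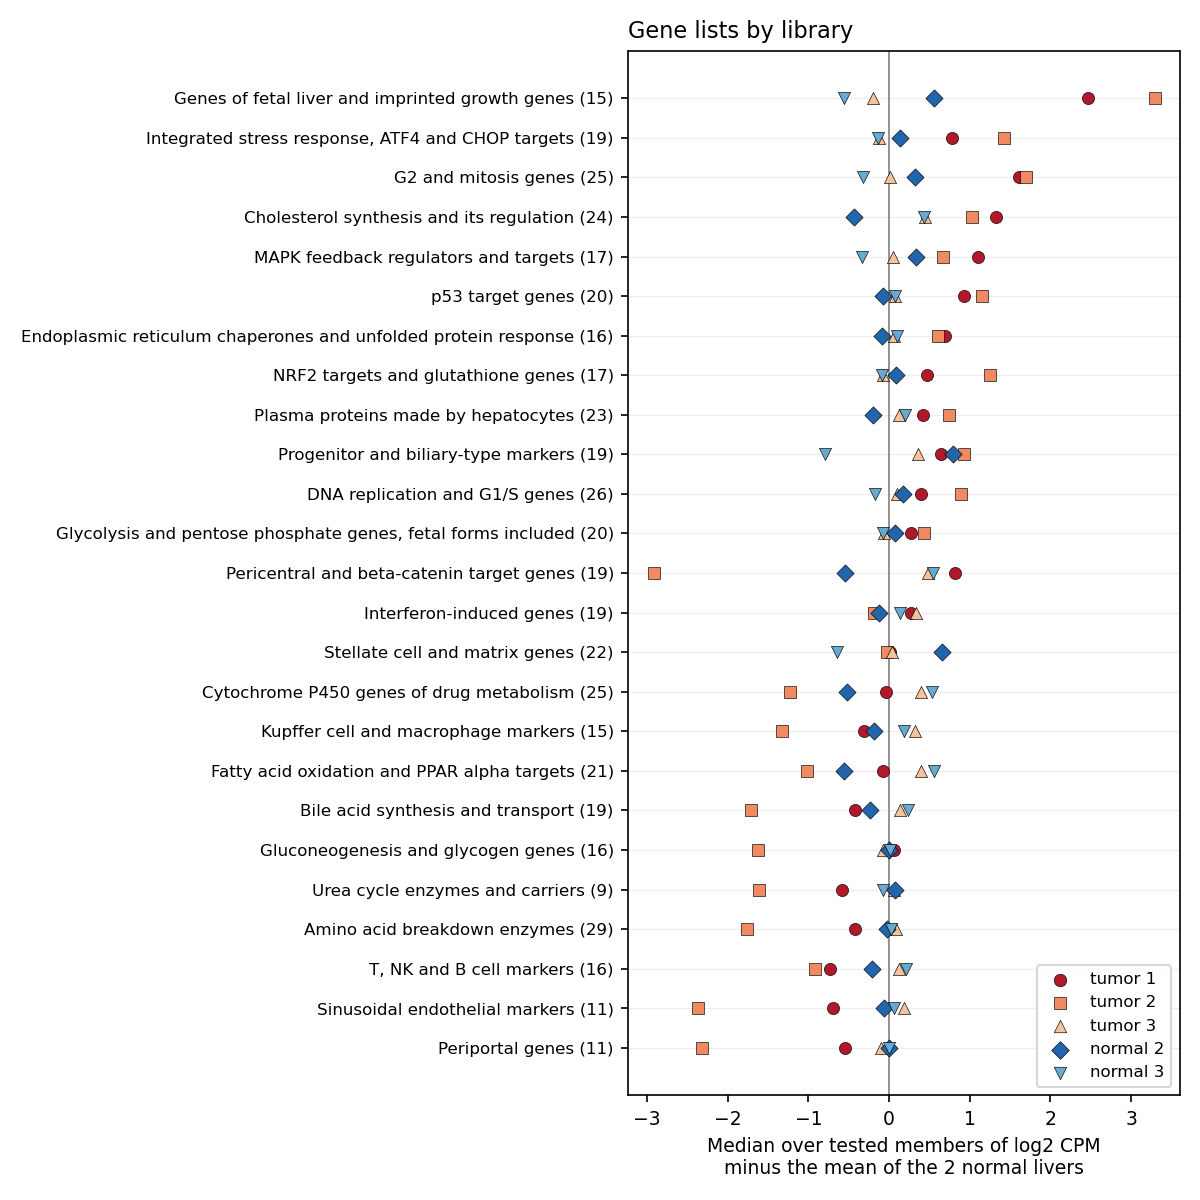
Median over the tested members (number in brackets) of each gene list of log2 CPM minus the mean of the 2 normal livers (x axis), by list (y axis); each symbol is 1 library, red tones for tumors and blue tones for normals. Tumor 2 and tumor 1 lie farthest to the right for fetal liver genes, at 3.29 and 2.47, tumor 2 lies far to the left for periportal, pericentral and sinusoidal endothelial lists, and tumor 3 is near the normal livers.

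Markers of sinusoidal endothelium and of Kupffer cells were lower in tumor 2 and, to a lesser extent, in tumor 1, but not in tumor 3. Against the normal mean, the sinusoidal median was -0.70, -2.37 and 0.19 log2 units in tumors 1, 2 and 3. The median of the Kupffer cell and macrophage list was -0.31, -1.32 and 0.325. In tumor 2 the median against the normal mean was 0.24 log2 units for markers of capillaries and large vessels, 0.37 for neutrophil genes and -0.02 for stellate cell and matrix genes. The stellate list was split in tumor 2. Of its 22 members, 8 were more than 2-fold below both normals, against 12.4% of all genes, and 4 more than 2-fold above both, against 9.39%. All 11 sinusoidal endothelial markers had a negative log2 fold change, with a median of -0.61, which was -1.33 without tumor 3, and none had an unadjusted p under 0.05. In tumor 2 all 11 were more than 2-fold below both normals, against 12.4% of all genes. In tumor 1 this held for 2 of them, against 1.72%, and in tumor 3 for 0, against 0.263%. Stab2, a hyaluronan scavenger receptor, had 82.9, 18.7 and 192 CPM in tumors 1, 2 and 3, against 147 and 161 CPM in normals 2 and 3. The summed level of the list was 621, 190 and 1231 CPM in the tumors, against 1029 and 1066 CPM in the normals. Without tumor 2 the median was -0.16. Clec4f, a lectin of mouse Kupffer cells, had 68.5, 6.78 and 125 CPM in the tumors, against 122 and 135 CPM in the normals, and the 15 Kupffer cell and macrophage markers had 2 positive members and a median of -0.35, which was -0.03 without tumor 2 and -0.72 without tumor 3. One of these, Mpeg1, a macrophage perforin, ran against the list with 209, 252 and 95.2 CPM in the tumors, against 91.7 and 70.0 CPM in the normals and a log2 fold change of 1.20 ± 0.48 (SE).

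T, NK and B cell markers were lower in tumors 1 and 2 as well. Of 16 tested members, 4 were positive, with a median of -0.52, which was -0.26 without tumor 2 or without normal 3 and -1.0 without tumor 3, and none at an unadjusted p under 0.05. Nkg7, a granule protein of cytotoxic lymphocytes, had 0.914, 1.05 and 2.21 CPM in tumors 1, 2 and 3, against 3.08 and 3.39 CPM in normals 2 and 3, a log2 fold change of -1.21 ± 0.54 (SE). The groups did not overlap, at few counts. Of 19 interferon-induced genes, 13 were positive, with a median of 0.07. An unadjusted p under 0.05 was found for 4, all higher in tumors, against 0.981% of all genes. Isg15, a ubiquitin-like modifier, had 23, 19.4 and 17.8 CPM in the tumors, against 11.4 and 14.0 CPM in the normals, a log2 fold change of 0.66 ± 0.22 (SE). Oas1a, an RNA sensor, had 10.7, 12.5 and 9.15 CPM in the tumors, against 5.80 and 6.96 CPM in the normals, a log2 fold change of 0.76 ± 0.26 (SE). Tumor 3 was above both normals for both genes. In the fit without tumor 2 and normal 2, 11 of the 19 were positive with a median of 0.0863.

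Normal 2 had the highest level of male-biased genes and the lowest level of female-biased genes. Mouse liver is known for strong sex differences set by the rhythm of growth hormone release. The Y-linked gene Ddx3y had 0, 5.89 and 0.0614 CPM in tumors 1, 2 and 3, against 51.1 and 0.117 CPM in normals 2 and 3, and Eif2s3y had 0.0609, 4.72 and 0.123 CPM in the tumors, against 74.7 and 0 CPM in the normals. Normal 2 was the Y-positive library, tumor 2 had an intermediate level and the rest were at or near 0. The 11 male-biased liver genes all had a negative log2 fold change, with a median of -3.33 and 5 at an unadjusted p under 0.05, against 0.212% of all genes. That median became 1.33 without normal 2, and 1.46 without tumor 2 and normal 2. The summed level of the male list was 3289, 6547 and 702 CPM in the tumors, against 12270 and 539 CPM in the normals. That of 15 female-biased genes was 4509, 8536 and 3702 CPM in the tumors, against 243 and 3830 CPM in the normals. By the median against the normal mean, the female list stood at 2.68, -0.80 and 3.47 log2 units in tumors 1, 2 and 3. The normals stood at -3.57 in normal 2 and 3.57 in normal 3, so that tumor 2 lay between normal 2 and the rest.

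Single genes showed this split. Elovl3, a male-biased fatty acid elongase, had 2.87, 0.278 and 2.89 CPM in tumors 1, 2 and 3, against 92.8 and 3.16 CPM in normals 2 and 3. Hsd3b5, a male-specific steroid enzyme of mouse liver, had 0.914, 0.888 and 0.184 CPM in the tumors, against 188 and 0.175 CPM in the normals. Cyp2b9, a female-biased P450, had 265, 310 and 376 CPM in the tumors, against 11.2 and 486 CPM in the normals. In each of these, normal 2 stood alone. Cux2, another female-biased gene, had 71.3, 8.72 and 98.1 CPM in the tumors, against 2.15 and 104 CPM in the normals, and was low in tumor 2 as well. Elovl3 and Mup1, both named above among the lower genes, were far higher in normal 2 than in normal 3, so tumor state and the sex of the animals cannot be told apart for them. The median of the female list was 0.23, and -0.35 without tumor 2 and normal 2. Levels of Mup and Cyp2 family members may be blurred by reads shared between near-identical copies.

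**Figure D5:**
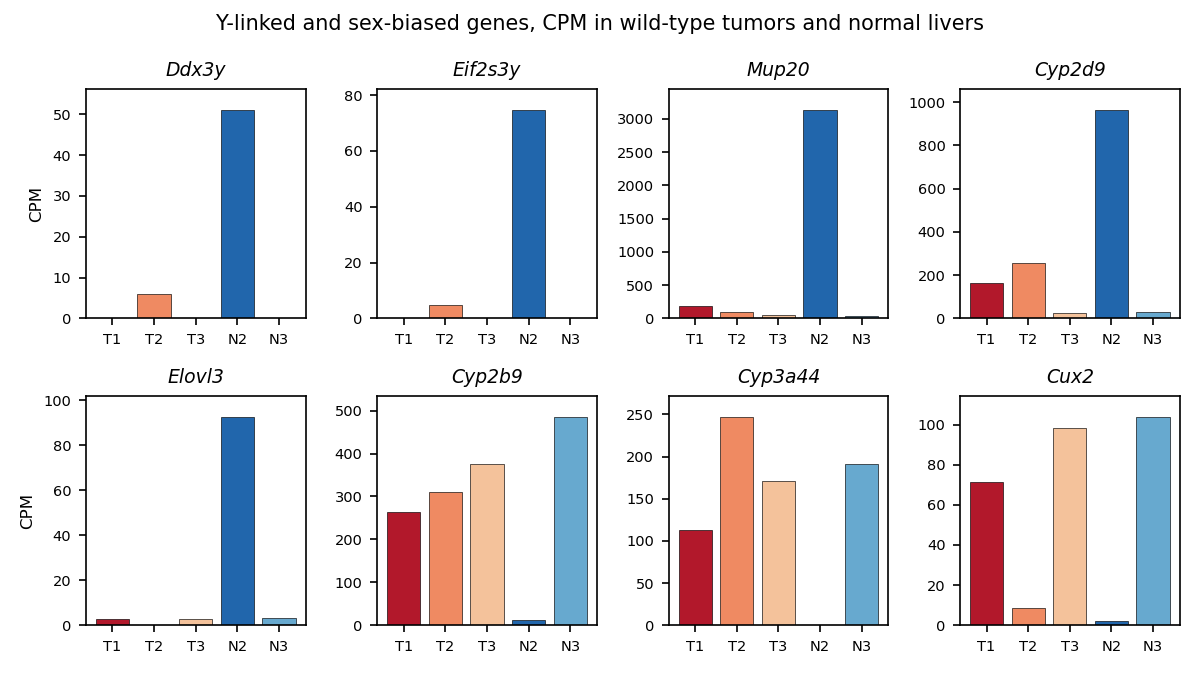
CPM (y axis, linear, from 0, own scale per gene) of 2 Y-linked genes, 3 male-biased and 3 female-biased liver genes in wild-type tumors 1 to 3 (T1 to T3) and wild-type normal livers 2 and 3 (N2, N3); each bar is 1 library. Ddx3y reaches 51.1 CPM in normal 2 and 5.89 CPM in tumor 2, and Cyp2b9 is at 11.2 CPM in normal 2 alone.

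Transcripts of other tissues were present in some libraries. The 10 tested skeletal muscle genes all had a positive log2 fold change, with a median of 5.78. An unadjusted p under 0.05 was found for 1, against 0.981% of all genes. The median was 3.07 without tumor 1, 8.68 without tumor 2 and normal 2, and 1.1 on the log2(FPKM + 1) scale. Their summed level was 161, 1.89 and 18.4 CPM in tumors 1, 2 and 3, against 2.79 and 1.46 CPM in normals 2 and 3. Acta1, skeletal muscle actin, had 31.9, 0.222 and 4.42 CPM in the tumors, against 0.573 and 0.0585 CPM in the normals. Tumor 1, and to a lower level tumor 3, carried these transcripts and tumor 2 did not. Normal 2 was the highest library for smooth muscle and globin transcripts: Myh11, smooth muscle myosin, had 13.9, 11.7 and 51.4 CPM in the tumors, against 151 and 10.1 CPM in the normals, and Hba-a1, an alpha-globin gene with a near-identical copy, had 69.7, 126 and 151 CPM in the tumors, against 416 and 66.7 CPM in the normals. Of 22 stellate cell and matrix genes, 9 were positive with a median of -0.15, which was 1.01 without normal 2. Dmbt1, a mucin-like protein of ducts, had 72.0, 0.555 and 350 CPM in the tumors, against 143 and 0.526 CPM in the normals. Of 8 tested erythroid genes, 1 was positive with a median of -1.04, which was 0.71 without normal 2. The part of these transcripts in other results was not tested. Of the lists whose median log2 fold change is not given, 12 had more than 5 tested genes, and their medians lay between -0.25 and 0.26.

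The authors deposited tables of 2 of these contrasts, each of 1 tumor library over 1 normal library and listing genes past an unadjusted p of 0.05 and 2-fold. In the authors' deposited table of tumor 2 over normal 2, 1001 genes are listed, 411 higher and 590 lower, of which 195 had an adjusted p under 0.05. In the authors' deposited table of tumor 3 over normal 3, 270 genes are listed, 257 higher and 13 lower, of which 88 had an adjusted p under 0.05. In the counts, 1670 genes (12.2%) of tumor 2 were more than 2-fold above normal 2 and 2433 genes (17.8%) below, and 599 genes (4.38%) of tumor 3 were more than 2-fold above normal 3 and 64 genes (0.468%) below. Genes on both of the authors' lists numbered 78, which is 7.79% of the list for number 2 and 28.9% of that for number 3. Of these 78, 20 were higher in both, 5 were lower in both and 53 had opposite directions.

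Named genes show both kinds in the authors' deposited tables. Afp had an authors' log2 ratio of 7.54 for tumor 2 over normal 2 and 2.0 for tumor 3 over normal 3, and Ly6d had 2.20 and 2.46. Mup1 had -10.56 and -1.80, lower in the tumor in both contrasts. Dmbt1 had -7.99 for number 2 and 9.37 for number 3, and Krt19 had -3.41 and 3.03. Both genes were high in normal 2 and in tumor 3, the 2 libraries that change sides between the contrasts. Of the 270 genes listed for number 3, 257 were higher, among them 9 muscle, 8 progenitor and biliary-type, 7 stellate cell and 4 erythroid genes. Their direction was thus close to that of the whole list. Of the 1001 genes listed for number 2, 411 were higher and 590 lower. All higher were its 10 fetal liver genes, and all lower its 10 sinusoidal markers, 9 male-biased genes and 9 pericentral genes. Other lists were mixed there, with 3 cytochrome P450 genes higher and 10 lower, and 5 acute phase genes higher and 6 lower.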

How the data were processed

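The 5 libraries were taken from the deposited table of raw counts per gene, which the authors made from poly(A) RNA-seq. Bowtie 0.12.2 and the builds mm8 and mm9 are named, per the submitters' processing notes, with no role given. The counter is not given in the sources used here. The authors' FPKM values were used for 2 alternatives on a log2 scale, log2(FPKM + 1) and log2(FPKM + 0.1), computed from the deposited FPKM. The authors' deposited tables give a log2 ratio and p-values for 1 library against 1, and the tool behind them is not stated. Another 22 per-library columns were left out.

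Genes with at least 10 counts in 2 of the 5 libraries were fitted with edgeR 4.0.16 in R 4.3.3 (TMM, robust quasi-likelihood, no covariate), with Benjamini-Hochberg adjustment over all 13664 genes. DESeq2 1.42.0 and limma 3.58.1 gave alternatives, and the test was checked on simulated counts. Log2 CPM used a prior count of 2. Members and gene lists were chosen with earlier results of these data known, and counts of list members carry no set test. Of 723 listed symbols, 679 were tested, 34 were below the filter and 10 had no row by that symbol. Named genes were the 12 per direction with the smallest p and no overlap between groups, the first 2 and the 4 of smallest p of each list, the 5 farthest per tumor and direction, and the 5 highest by FPKM; Mki67, Pcna and other well-known members outside that rule, and single library exceptions, were named after their values were seen. Equal numbers were not treated as pairs, since the labels do not state it. Values of some single members of the lists are not reported here.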

Additional observations from a re-analysis of the deposited data

How the results depend on the processing

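No gene was called under any alternative run except 1 lower gene, Mup1, in DESeq2, and 0 genes were higher throughout. Genes at an unadjusted p under 0.05, 163 in the reported fit, numbered 512 in DESeq2, 76 in limma-voom, 106 on log2(FPKM + 1), and between 30 and 1524 with 1 library left out, without tumor 1 and without tumor 3. With the number as a replicate block they numbered 138; deviations of numbers 2 and 3 correlated at 0.222 over genes, and the labels state no pairing. At 4-fold in place of 2-fold, 165 genes lay above and 13 below both normals in tumor 1, 363 and 632 in tumor 2, and 20 and 2 in tumor 3. With library totals, 358 were below in tumor 1 and 841 above in tumor 2, and at a mean of at least 1 CPM 13 were below in tumor 3.

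The 38 log2 fold changes printed for single genes kept their sign under every alternative that gave a value. List medians were less stable, and the cause of a turn was not tested. The pericentral median of 0.15 was -0.70 in limma-voom, -0.19 on log2(FPKM + 1), -0.50 on log2(FPKM + 0.1), -1.28 with the replicate block, and -0.36 to 0.93 with 1 library left out. The muscle median of 5.78 was 2.41 with the replicate block. The interferon median of 0.07 was -0.0517 with library totals, -0.0756 and -0.10 on the 2 FPKM scales, and -0.10 to 0.27 with 1 library left out. The stellate median of -0.15 was 0.0092 in limma-voom, 0.0709 with the replicate block, 0.85 without tumor 2 and normal 2, and -0.39 to 1.01 with 1 library left out. Without tumor 2 and normal 2, the male median was 1.46, the female one -0.35 and the erythroid one 0.62. With 1 library left out, the ranges were -0.34 to 1.49 for progenitor markers, -0.75 to 0.58 for fatty acid oxidation, -0.63 to 0.68 for cytochrome P450 genes, -4.30 to 1.33 for male, -0.77 to 6.15 for female and -1.84 to 0.71 for erythroid genes. In simulated counts, DESeq2 recovered 18.8% of changes of 2-fold and 59.4% of those of 4-fold, with 50 unchanged genes called, against 1.45%, 15.6% and 3 in edgeR. Leaving out a normal leaves 1 library, assumed to vary like the tumors.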
